A study of Mus musculus with 16 samples.

Results

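Glycolysis and hypoxia response genes were followed in 2 mouse mammary tumour cell lines. The set was a list of 36 gene symbols, each found in the table by its Entrez identifier, out of 19665 genes in all. It held 17 glycolytic enzymes, 3 membrane transporters, 3 switches of glycolytic flux, 12 other targets of hypoxia-inducible factor (HIF) and Hif1a itself. All 36 passed the level filter over all libraries together, but Adm, Slc16a3, Car12, Egln3 and Eno2 did so only through line 828 (AE below). In line 631 (WT below) Adm had no count in any library, and Slc16a3 had none without treatment. Comparisons within WT therefore hold no real test of Adm, which still counts among the 36 there.

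Both lines came from mammary tumours of MMTV-PyMT mice on the FVB/N background, in which the mouse mammary tumour virus promoter drives the polyoma middle T oncogene in mammary epithelium. Pygo2 encodes a nuclear protein of the beta-catenin complex; line 631 carried its wild-type form (WT) and line 828 the A342E allele on both copies (AE). Cells of each line received TGFb at 2 ng/ml for 4 days or Wnt3a at 100 ng/ml for 3 days, and each treatment had its own untreated cells of the same duration. This gave 8 groups of 2 libraries, described as biological duplicates by the submitters. Nothing in the labels tells whether they came from separate cultures, and the p-values therefore rest on a spread that may be technical. With 1 line per genotype, a difference between WT and AE cannot be told apart from a difference between 2 lines. A point mutation leaves its transcript in place, so the counts do not check the genotype. The labels describe no low-oxygen treatment.

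Glycolysis splits glucose into pyruvate in a chain of enzymes from hexokinase to pyruvate kinase, and lactate dehydrogenase turns pyruvate into lactate. HIF is a pair of a labile alpha subunit and a stable beta subunit. In normal oxygen the prolyl hydroxylases Egln1 and Egln3 modify the alpha subunit, which is then degraded; in low oxygen it accumulates and binds DNA at the core sequence ACGTG. Many glycolytic enzymes are HIF targets, and so are genes for acid-base balance (Car9), collagen hydroxylation (P4ha1, P4ha2) and mitophagy (Bnip3). Mammary tumour cells are known for high glycolysis also in the presence of oxygen.

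The promoters of 6 members on which the results turn are printed here, because they show where that core lies in genes that moved in opposite directions. Each run holds the 250 bases before an annotated start, 5′ to 3′ on the gene's strand (RefSeq, GRCm38.p6). Capitals mark ACGTG or its reverse complement CACGT, which overlap in CACGTG.
Ldha, chr7:46845554-46845803, plus strand: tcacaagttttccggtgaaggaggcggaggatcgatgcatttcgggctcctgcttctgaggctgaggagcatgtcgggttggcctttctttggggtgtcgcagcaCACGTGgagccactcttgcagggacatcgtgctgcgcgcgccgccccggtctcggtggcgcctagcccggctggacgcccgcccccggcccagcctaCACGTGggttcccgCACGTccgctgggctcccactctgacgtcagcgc
Pgk1, chrX:106186850-106187099, plus strand: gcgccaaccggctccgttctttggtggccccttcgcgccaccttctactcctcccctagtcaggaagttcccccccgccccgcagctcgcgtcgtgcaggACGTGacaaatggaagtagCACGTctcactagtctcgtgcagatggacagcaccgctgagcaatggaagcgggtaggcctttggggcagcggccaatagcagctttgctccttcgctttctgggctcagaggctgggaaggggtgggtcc
Car9, chr4:43506776-43507025, plus strand: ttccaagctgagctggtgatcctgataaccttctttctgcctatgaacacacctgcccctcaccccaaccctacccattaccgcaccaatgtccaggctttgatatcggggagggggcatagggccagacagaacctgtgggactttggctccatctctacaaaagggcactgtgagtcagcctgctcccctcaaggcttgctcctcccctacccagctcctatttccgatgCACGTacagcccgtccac
Ankrd37, chr8:45999851-46000100, minus strand: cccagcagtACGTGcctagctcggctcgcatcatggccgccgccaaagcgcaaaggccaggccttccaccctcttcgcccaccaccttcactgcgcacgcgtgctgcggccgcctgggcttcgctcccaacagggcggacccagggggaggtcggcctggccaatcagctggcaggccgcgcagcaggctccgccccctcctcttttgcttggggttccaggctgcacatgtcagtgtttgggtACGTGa
P4ha2, chr11:54100674-54100923, plus strand: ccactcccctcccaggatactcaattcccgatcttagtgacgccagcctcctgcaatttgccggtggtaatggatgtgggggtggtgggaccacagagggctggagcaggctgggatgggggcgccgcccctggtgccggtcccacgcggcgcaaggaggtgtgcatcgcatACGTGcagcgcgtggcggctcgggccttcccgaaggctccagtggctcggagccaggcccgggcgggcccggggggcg
Slc16a3, chr11:120948817-120949066, plus strand: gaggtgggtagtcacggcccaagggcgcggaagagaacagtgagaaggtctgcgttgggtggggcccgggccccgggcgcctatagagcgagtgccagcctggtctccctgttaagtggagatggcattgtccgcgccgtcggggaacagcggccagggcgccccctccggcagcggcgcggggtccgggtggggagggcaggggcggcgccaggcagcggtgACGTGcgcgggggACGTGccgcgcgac
Ldha (lactate dehydrogenase A), Pgk1 (phosphoglycerate kinase), Car9 (carbonic anhydrase 9) and Ankrd37 fell with TGFb in WT, whereas P4ha2 (a collagen prolyl hydroxylase) and Slc16a3 (the lactate exporter MCT4) rose. All 6 printed windows hold the core; the same stretch before the other annotated start of Ldha, chr7:46846832-46847081, holds no ACGTG. In Ldha it forms CACGTG palindromes whose overlapping matches start 145 and 144 bases, and 48 and 47 bases, before the start, and a further match starts at 34 bases. In Car9 the match lies 18 bases and in Ankrd37 the nearest lies 6 bases before the start.

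Promoter windows of 300 bases (250 before to 50 after the start) were available for 34 members. The core ACGTG, on either strand, was in at least 1 window of 23 of them (67.6%) and of 25.9% of 14967 genes of the table. It was in 10 of 17 glycolytic enzymes (58.8%) and 8 of 10 other HIF targets (80.0%). With GCGTG counted as well, the shares were 88.2% of members and 59.1% of all genes. These are matches of letters, and no binding was measured. Among the printed windows, members that rose and members that fell both carried the core. Not every member that moved held it before its start. Pfkp, which fell with TGFb in WT, and Ldhb, which rose, held no ACGTG in the 250 bases before their annotated starts. The shares above also take in the 50 bases after the start, which this statement on Pfkp and Ldhb does not cover.

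**Figure D1:**
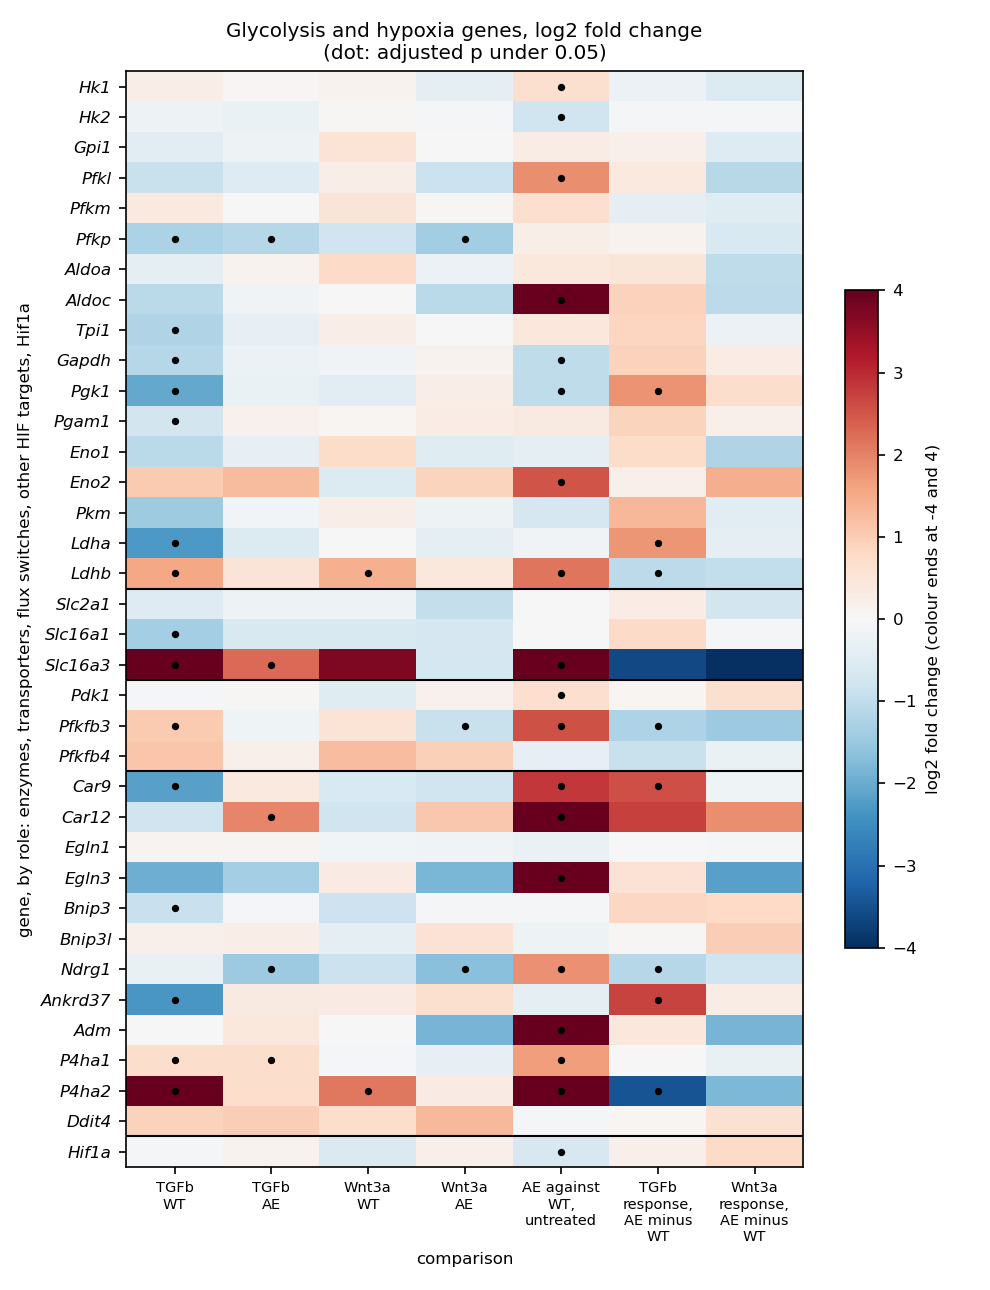
Rows are the 36 genes in 5 roles and columns the 7 comparisons; colour gives the log2 fold change from edgeR, and a dot marks an adjusted p under 0.05. In WT, TGFb lowered 10 members and raised 5, in AE it lowered 2 and raised 3, and the fitted values of Slc16a3 and Adm in columns where WT libraries hold no count depend on edgeR's prior count.

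Levels are given in CPM, read counts brought to a common library size with TMM scaling, from 20530538 to 26191846 counts per library. A gene passed a comparison at a Benjamini-Hochberg adjusted p under 0.05 over all 13172 genes tested (edgeR's quasi-likelihood test). Lack of overlap between libraries is given below as a description of named genes and is no separate support. The share of all genes without overlap was not computed. With 2 libraries per group, lack of overlap can arise without a change. Epithelial markers (9 genes) summed to 1784 to 5360 CPM over all libraries, with 7 to 9 of them at 1 CPM or more, and immune markers summed to at most 6.46 CPM. In WT the ratio of replicate 1 to replicate 2 followed transcript GC content in every group (Spearman rho across genes -0.638 to -0.745; genes are not independent replicates). This reached the members: in untreated 3-day WT, 16 of 17 enzymes were lower in replicate 1, with a median log2 ratio of -1.07, whereas 5 of 12 other HIF targets were, with a median of 0.08. The enzymes had a median transcript GC content of 53.0% and the other HIF targets 50.9%. The 3-day replicates differed more than the 4-day ones, with an SD of the log2 ratio across genes of 0.91 and 0.85 in WT and 0.78 and 0.44 in AE, against 0.24 to 0.42 at 4 days. A single spread was estimated over both experiments, so the Wnt3a comparisons are also given with the 3-day libraries alone.

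**Figure D2:**
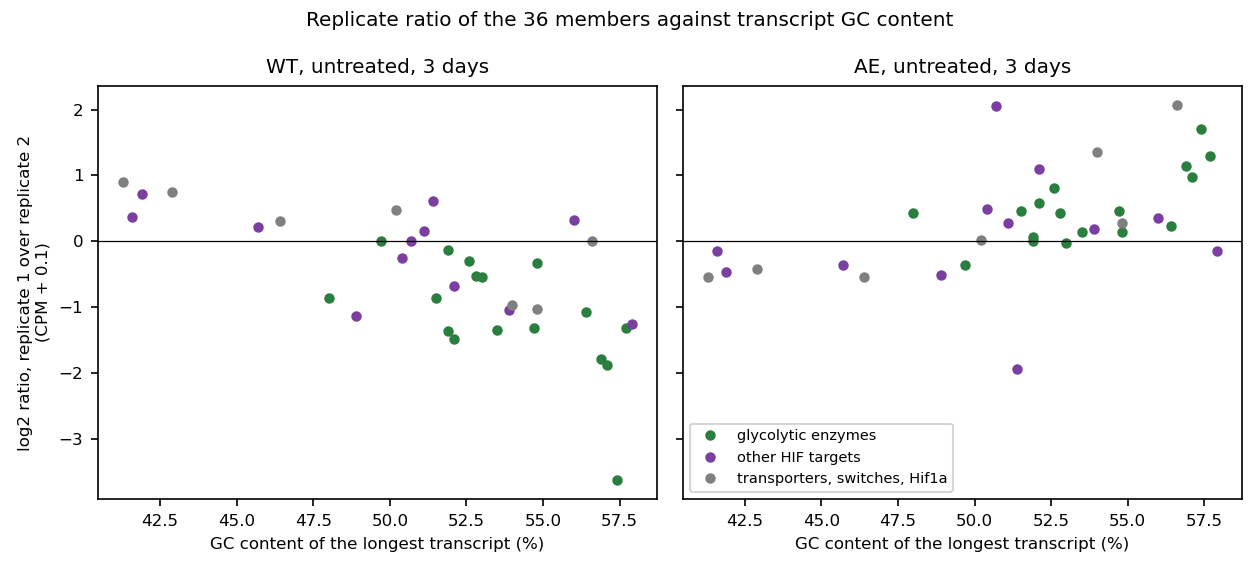
Each point is 1 of the 36 genes: GC content of its longest transcript in percent against the log2 ratio of replicate 1 to replicate 2, on CPM + 0.1, in the untreated 3-day libraries of WT (left) and AE (right). In WT the enzymes lie below 0 (16 of 17), and in AE 2 of 17 do.

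Some members share sequence with other genes, so their counts are uncertain. Of all 75-base windows of the Gapdh transcript, the read length used here, 80.3% also occur in transcripts of 118 other genes. Gapdh had 22 to 88 counts per library (0.949 to 3.36 CPM), and its values are given only because it passed. The share was 67.5% for Pgk1, 65.4% for Eno1, 40.6% for Pgam1, and 15.3% to 19.6% for Pkm, Bnip3l, Ldhb and Bnip3. It was 5.2% for Ldha and 0 for Pfkp, Car9, Ankrd37, P4ha1, P4ha2, Ndrg1 and the 3 transporters. How reads with several matches were counted is not stated in the labels.

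Per kilobase of exon, the order of levels in untreated cells was led by Pkm and Ldha in both lines. In WT, Pkm (pyruvate kinase) stood at 723 ± 344 CPM per kb, Ldha at 660 ± 210, Pgk1 at 349 ± 35 and Tpi1 (triosephosphate isomerase) at 201 ± 86 (SD, n = 4). Pkm and Ldha did not differ beyond their spread. In AE, Ldha stood at 592 ± 97 CPM per kb, Pkm at 434 ± 157, Tpi1 at 262 ± 65 and Aldoa (aldolase A) at 195 ± 61 (n = 4). At the low end in WT, Car12, Egln3 and Eno2 were at 0.0521 ± 0.0472, 0.172 ± 0.045 and 0.186 ± 0.035 CPM per kb, and Slc16a3 and Adm had no count in any of the 4 untreated libraries.

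The first comparison asked how the set differed between the lines without treatment. In untreated AE against untreated WT cells, 15 members were higher and 4 lower, which is 52.8% of the set, beside 53.8% of all genes tested (27.4% higher, 26.4% lower). The share of members called was therefore near that of any gene. The differences largest in size were in aldolase C, MCT4, the prolyl hydroxylases P4ha2 and Egln3, Car12 and adrenomedullin (Adm), each at 1.07 CPM or less in every untreated WT library and higher than that gene's WT libraries in every AE library. The median log2 fold change was 0.37 over the 17 enzymes and 1.75 over the 12 other HIF targets, against 0.01 over all genes; the median of the other HIF targets did not move to 2 decimals with Adm set at its lower bound. Slc16a3, Egln3, Car12, Adm and Eno2 passed the level filter only through AE. For them a test of AE above WT was largely settled in advance. The median of the other HIF targets includes Egln3, Car12 and Adm. Values are given below in the order 4-day replicates 1 and 2, then 3-day replicates 1 and 2 (n = 4 per line).

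Among the enzymes, Aldoc, the brain-type aldolase, was at 0.879, 0.896, 0.354 and 1.07 CPM in WT against 351, 320.0, 301 and 299 CPM in AE (log2 fold change 8.61 ± 0.36, adjusted p = 4.5e-09). Ldhb, the lactate dehydrogenase subunit common in oxidative tissue, was at 17.5, 20.5, 11.2 and 16.4 CPM in WT against 70.7, 67.6, 74.5 and 75.8 CPM in AE (log2 fold change 2.15 ± 0.15, adjusted p = 2.2e-07). Pfkl, the liver-type phosphofructokinase, was at 101, 159.7, 22.5 and 83.6 CPM in WT against 403, 320.0, 334 and 169 CPM in AE (log2 fold change 1.86 ± 0.40, adjusted p = 0.0019). For each of these 3 genes every AE library lay above every WT library. Eno2, the neuronal enolase, was low in both lines, at 0.497, 0.424, 0.505 and 0.657 CPM in WT against 3.27, 4.22, 2.47 and 2.23 CPM in AE (log2 fold change 2.50 ± 0.33, adjusted p = 4.6e-05). Hk1, a hexokinase bound to mitochondria, was at 119, 143, 60.7 and 127 CPM in WT against 203, 189, 165 and 142 CPM in AE (log2 fold change 0.64 ± 0.20, adjusted p = 0.016), and 1 library of each line overlapped the other line's range. Its direction turned to -0.19 when libraries were corrected for GC content and transcript length.

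Fewer enzymes were lower in AE. Hk2, the inducible hexokinase, was at 49.0, 52.1, 37.1 and 40.7 CPM in WT against 29.9, 35.4, 20.4 and 19.6 CPM in AE (log2 fold change -0.80 ± 0.17, adjusted p = 0.0017). Pgk1, the first ATP-yielding enzyme of the pathway, was at 726, 635, 592 and 592 CPM in WT against 344, 336, 252 and 323 CPM in AE (log2 fold change -1.02 ± 0.13, adjusted p = 3.9e-05). The sets of 4 libraries did not overlap for either gene. Gapdh was at 3.36, 2.26, 2.42 and 3.0 CPM in WT against 1.0, 1.71, 1.74 and 0.949 CPM in AE (log2 fold change -1.03 ± 0.27, adjusted p = 0.0065), on few and partly shared reads. The remaining 9 enzymes did not pass, with log2 fold changes of -0.66 (Pkm) to 0.66 (Pfkm); Ldha was among them (log2 fold change -0.13 ± 0.22, adjusted p = 0.65).

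Of the transporters, the lactate exporter Slc16a3 had 0 counts in all 4 WT libraries and 1.27, 1.45, 5.7 and 1.28 CPM in AE, 240 counts in all. With the WT group set to 3 counts, it was at least 74.4-fold higher in AE (adjusted p = 2.3e-05). The glucose transporter Slc2a1 (GLUT1) and the lactate carrier Slc16a1 (MCT1) did not pass, with log2 fold changes of -0.01 ± 0.32 and 0.00 ± 0.17. Of the flux switches, Pfkfb3 makes fructose 2,6-bisphosphate, the activator of phosphofructokinase. It was at 9.48, 8.91, 9.34 and 6.7 CPM in WT against 51.4, 59.6, 46.4 and 45.7 CPM in AE (log2 fold change 2.56 ± 0.18, adjusted p = 2.5e-07), with no overlap. Pdk1, which shuts pyruvate dehydrogenase, was at 34.6, 30.4, 36.4 and 29.3 CPM in WT against 71.5, 68.4, 31.6 and 45.9 CPM in AE (log2 fold change 0.67 ± 0.19, adjusted p = 0.011), with 1 AE library inside the WT range.

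The other HIF targets that passed were all higher in AE. P4ha2 was at 0.955, 0.754, 0.606 and 1.03 CPM in WT against 80.7, 77.6, 89.7 and 41.8 CPM in AE (log2 fold change 6.41 ± 0.29, adjusted p = 7e-09). Its partner isozyme P4ha1 was at 69.3, 67.8, 61.1 and 52.6 CPM in WT against 276, 276, 125 and 161 CPM in AE (log2 fold change 1.67 ± 0.14, adjusted p = 9.3e-07). Both act on collagen in the endoplasmic reticulum. Egln3, the inducible HIF prolyl hydroxylase, was at 0.382, 0.566, 0.556 and 0.329 CPM in WT against 42.8, 38.4, 8.09 and 31.3 CPM in AE (log2 fold change 5.95 ± 0.52, adjusted p = 1.3e-06). Car9, a membrane carbonic anhydrase, was at 8.6, 9.19, 5.51 and 11.5 CPM in WT against 71.0, 68.2, 58.4 and 51.2 CPM in AE (log2 fold change 2.83 ± 0.22, adjusted p = 5.2e-07). For all 4 genes the lowest AE library lay above the highest WT library.

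Car12, a related carbonic anhydrase, was at 0.0764, 0.0943, 0.152 and 0.452 CPM in WT against 8.28, 7.57, 8.9 and 12.8 CPM in AE (log2 fold change 5.78 ± 0.32, adjusted p = 3.4e-08). Ndrg1, a stress-response gene of differentiated epithelium, was at 75.3, 91.4, 67.5 and 80.7 CPM in WT against 247, 247, 366 and 262 CPM in AE (log2 fold change 1.83 ± 0.17, adjusted p = 1.8e-06). Adm, a vasodilator peptide, had 0 counts in WT and 1.91, 2.47, 2.87 and 0.619 CPM in AE, 196 counts in all, which is at least 60.7-fold (adjusted p = 0.00018). The libraries of the lines did not overlap for these 3 genes either. Egln1, Bnip3, Bnip3l, Ankrd37 and Ddit4 did not pass, with log2 fold changes of -0.40 (Ankrd37) to -0.06 (Bnip3). Hif1a, the alpha subunit, was at 196, 156, 357 and 191 CPM in WT against 125, 145, 120.0 and 174 CPM in AE (log2 fold change -0.64 ± 0.25, adjusted p = 0.045), with overlap.

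Within each time, 24 members passed among the 4-day libraries (18 higher, 6 lower), where 60.7% of all genes did, and 12 among the 3-day libraries (11 higher, 1 lower), where 20.9% did. Hk1, Hk2, Gapdh, Eno2, Pdk1 and Hif1a lost their call in the 3-day libraries alone; Hk1 also lost it without untreated 4-day WT replicate 1, Pdk1 with a replicate block within each line (adjusted p = 0.087), and Hif1a in 13 of 22 alternatives. With the GC and length correction 17 members were higher and 12 lower, beside 15 and 4 without it, and 71.2% of all genes passed. That correction moved the median of all genes by -0.33 on the log2 scale. Fibroblast markers (7 genes) moved with the line, and 5 of 6 tested were higher in AE. They summed to 5.99 to 10.6 CPM in untreated WT, where Lum, Thy1 and Col3a1 had no count. In untreated AE the sum was 217 to 359 CPM, with Lum again at 0 and Dcn at no more than 1 count per library. Proliferation genes were lower in 4 of 5, with sums of 2706 to 5147 CPM in WT and 1153 to 2077 CPM in AE. Of the 9 epithelial markers 5 were lower and 1 higher: the basal keratin Krt14 was at 105 to 1026 CPM in WT and 29.6 to 91.6 CPM in AE, and the luminal factor Elf5 at 3.69 to 8.38 CPM and 352 to 616 CPM. The part of these markers was not tested, and in bulk RNA more cells of a type and more RNA per cell cannot be told apart.

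The second comparison was the response of WT to TGFb. TGFb lowered 10 members and raised 5, or 41.7% of the set beside 27.6% of all genes tested (14.7% higher, 12.9% lower). Of the 17 enzymes 6 fell, 1 rose and 10 did not pass, with a median log2 fold change of -0.89 against 0.06 over all genes. Among the enzymes the fall was largest in Ldha and Pgk1, and the enzyme that rose was Ldhb. Of the 12 other HIF targets 3 fell, 2 rose and 7 did not pass, with a median of -0.16, or -0.31 over the 11 that had counts. The difference between the classes was not tested. Summed over the 17 enzymes, the level per kilobase of exon was 2685 and 3256 CPM per kb in the untreated replicates and 1028 and 1302 with TGFb. In AE the same sum was 2430 and 2197 untreated and 1965 and 1961 with TGFb.

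Ldha went from 1441 and 1610 CPM in the untreated replicates to 300.3 and 321 CPM with TGFb (log2 fold change -2.29 ± 0.33, adjusted p = 0.00025). Pgk1 went from 726 and 635 CPM to 174 and 157 CPM (log2 fold change -2.04 ± 0.19, adjusted p = 1.2e-05). Pfkp, the platelet-type phosphofructokinase, went from 66.7 and 71.0 CPM to 27.8 and 29.3 CPM (log2 fold change -1.27 ± 0.28, adjusted p = 0.0054). These 3 fell by more than their replicates differed and kept their call in every alternative run. Tpi1 went from 419 and 494 CPM to 182 and 216 CPM (log2 fold change -1.20 ± 0.38, adjusted p = 0.035). Pgam1, phosphoglycerate mutase, went from 65.5 and 74.5 CPM to 38.1 and 45.7 CPM (log2 fold change -0.74 ± 0.24, adjusted p = 0.035). Gapdh went from 3.36 and 2.26 CPM to 1.28 and 1.26 CPM (log2 fold change -1.15 ± 0.39, adjusted p = 0.043). The groups did not overlap for these genes, but all 3 lost their call when any 1 of the 4 libraries was left out.

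Ldhb went the other way, from 17.5 and 20.5 CPM to 52.9 and 58.0 CPM (log2 fold change 1.54 ± 0.21, adjusted p = 0.00017), and kept its call in every alternative run. The 10 enzymes that did not pass had log2 fold changes of -1.43 to 1.04. Pkm was lowest among them, at 2070 and 2898 CPM untreated and 762 and 1086 CPM with TGFb (log2 fold change -1.43 ± 0.51, adjusted p = 0.057). Among the transporters, Slc16a1, which carries lactate and pyruvate, went from 158 and 139 CPM to 58.8 and 57.0 CPM (log2 fold change -1.36 ± 0.24, adjusted p = 0.0013). Slc16a3 had 0 counts in both untreated libraries and 4 and 9 counts with TGFb, at least 4.82-fold higher (adjusted p = 0.028); the call rests on 13 counts and was lost in 3 of 4 runs that left out a library. Slc2a1 did not pass (log2 fold change -0.50 ± 0.45, adjusted p = 0.46). Pfkfb3 rose from 9.48 and 8.91 CPM to 19.6 and 18.4 CPM (log2 fold change 1.05 ± 0.25, adjusted p = 0.0076), a call lost without untreated replicate 2 (adjusted p = 0.062).

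Of the other HIF targets, Car9 fell from 8.6 and 9.19 CPM to 1.97 and 1.93 CPM (log2 fold change -2.19 ± 0.33, adjusted p = 0.00033). Ankrd37, a small ankyrin repeat protein, fell from 3.52 and 4.05 CPM to 0.688 and 0.808 CPM (log2 fold change -2.33 ± 0.39, adjusted p = 0.00081). Bnip3, a mitophagy receptor, fell from 16.9 and 15.1 CPM to 9.39 and 7.77 CPM (log2 fold change -0.90 ± 0.26, adjusted p = 0.023). The collagen hydroxylases rose. P4ha2 went from 0.955 and 0.754 CPM to 13.9 and 17.2 CPM (log2 fold change 4.17 ± 0.38, adjusted p = 8.8e-06), the largest rise of the set on counts above the floor. P4ha1 went from 69.3 and 67.8 CPM to 114 and 108 CPM (log2 fold change 0.69 ± 0.19, adjusted p = 0.019). Untreated and treated libraries did not overlap for any of these 5 genes; Bnip3 and P4ha1 lost their call when any 1 library was left out. Hif1a did not pass (log2 fold change -0.03 ± 0.35, adjusted p = 0.97), nor did the mitophagy receptor Bnip3l (log2 fold change 0.20 ± 0.26, adjusted p = 0.63) or Ddit4, an inhibitor of mTORC1 (log2 fold change 0.92 ± 0.41, adjusted p = 0.12).

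Without any 1 of the 4 WT 4-day libraries, 8 to 10 members passed instead of 15, the fewest (8) without untreated replicate 2 and 9 without untreated replicate 1 or TGFb replicate 2. These fits called 16% to 18% of all genes. With the 4-day libraries fitted alone, 27 members passed (9 higher, 18 lower), beside 55.9% of all genes. Proliferation genes (5 of 5 lower) moved with the treatment, from summed levels of 2706 to 3263 CPM untreated to 108 to 141 CPM with TGFb. Of 6 fibroblast markers tested 4 rose, and their sum went from 5.99 to 6.27 CPM untreated to 39.1 to 49.8 CPM, with Lum and Thy1 at 0. The part of either in the members' changes was not tested.

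**Figure D3:**
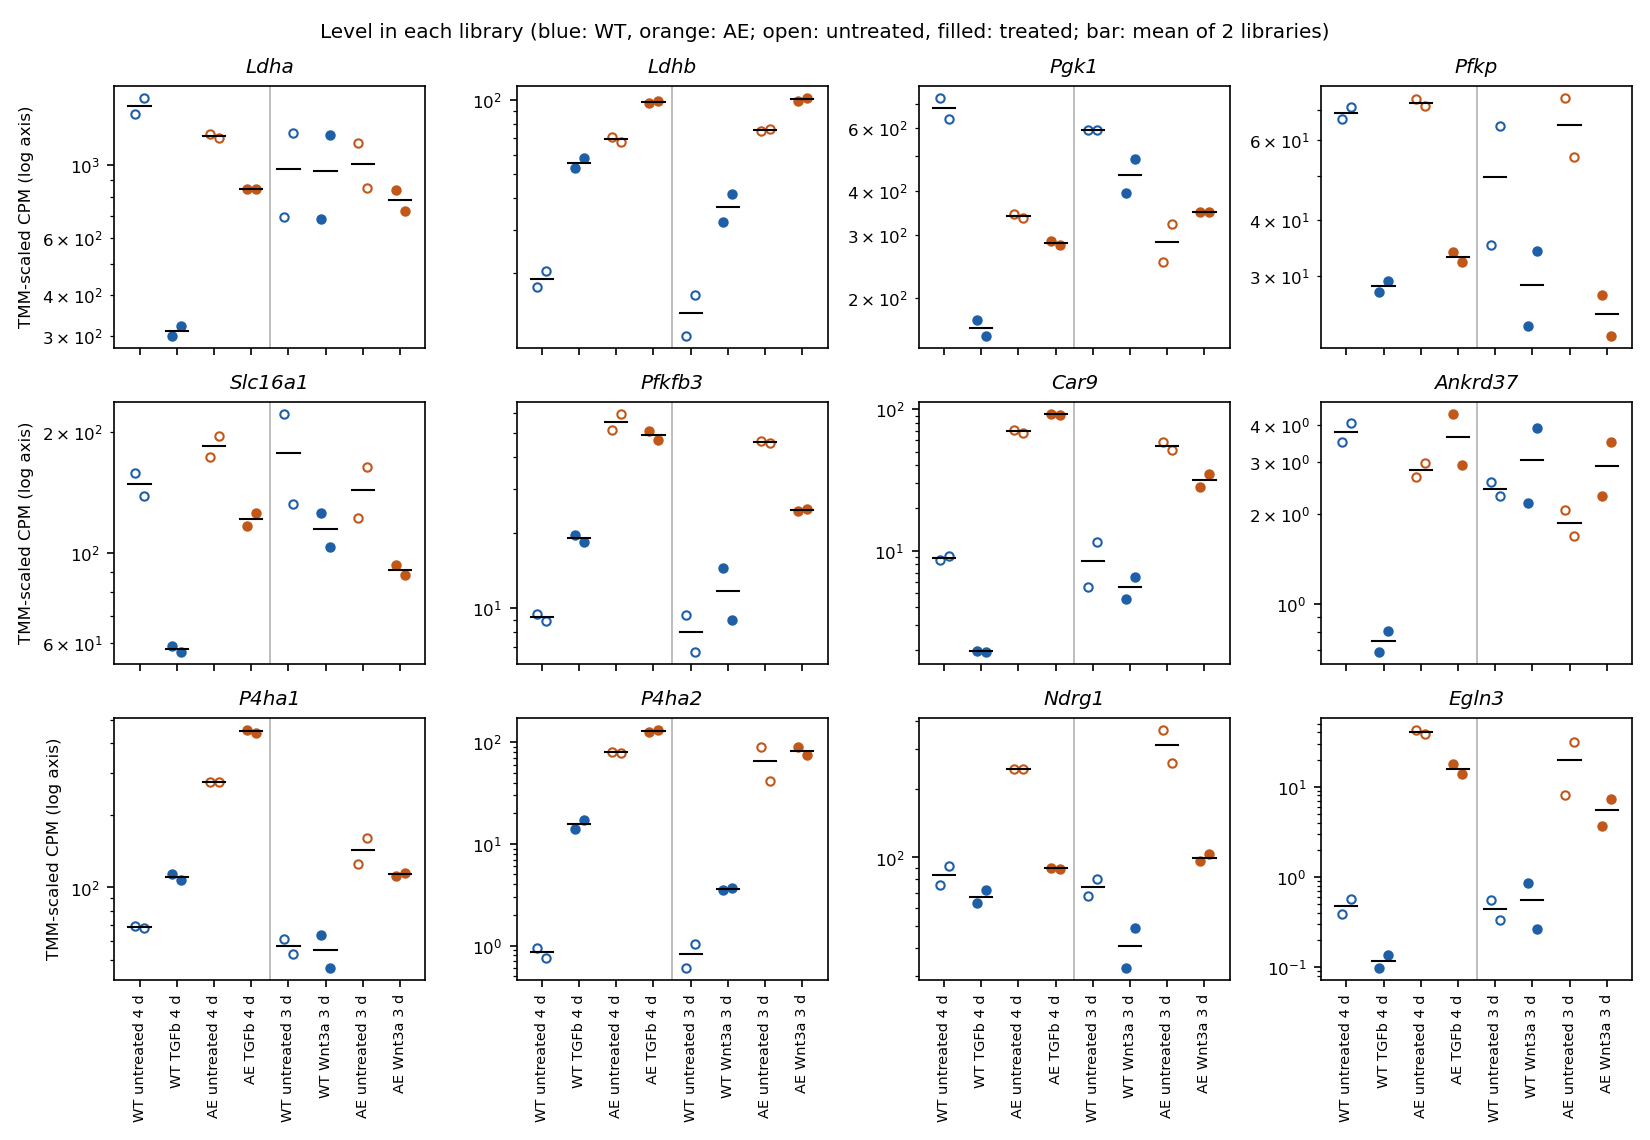
Each panel shows 1 gene, with the CPM of each library on a log axis and a bar at the mean of the 2 replicates, for 8 groups (4-day experiment left of the grey line, 3-day experiment right of it; open points untreated, filled points treated). Ldha, Pgk1, Car9 and Ankrd37 drop with TGFb in WT (blue) and less or not in AE (orange).

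In AE cells TGFb changed 5 members, 3 up and 2 down, or 13.9% of the set beside 10.4% of all genes tested (6.09% higher, 4.32% lower). Of the 17 enzymes 1 fell and 16 did not pass (median log2 fold change -0.20, all genes -0.004). Of the 12 other HIF targets 2 rose and 1 fell (median 0.38). Pfkp fell from 73.9 and 71.3 CPM to 34.1 and 32.2 CPM (log2 fold change -1.13 ± 0.28, adjusted p = 0.024), close in size to its fall in WT. Ndrg1 fell from 247 and 247 CPM to 89.9 and 89.1 CPM (log2 fold change -1.47 ± 0.23, adjusted p = 0.0021). Slc16a3 rose from 1.27 and 1.45 CPM to 7.17 and 5.93 CPM (log2 fold change 2.26 ± 0.60, adjusted p = 0.039). No library of the treated cells reached the untreated range for these 3 genes.

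Car12 rose from 8.28 and 7.57 CPM to 31.5 and 29.3 CPM (log2 fold change 1.94 ± 0.33, adjusted p = 0.003), and P4ha1 rose from 276 and 276 CPM to 456 and 441 CPM (log2 fold change 0.70 ± 0.19, adjusted p = 0.038). The groups did not overlap for either gene. Ldha was at 1250 and 1216 CPM untreated and 844 and 848 CPM with TGFb and did not pass (log2 fold change -0.54 ± 0.31, adjusted p = 0.37). Without any 1 of the 4 AE 4-day libraries, 1 or 2 members passed, and 1 of them was Ndrg1 each time. The single count of 1 came without untreated replicate 2, where Car12 also missed the threshold (adjusted p = 0.053). These fits called 2.68% to 3.5% of all genes. With the 4-day libraries fitted alone, 13 members passed (8 higher, 5 lower), a share near the 35.0% of all genes. Proliferation genes summed to 1562 to 1598 CPM untreated and 663 to 677 CPM with TGFb, and all 5 passed the test of the difference from WT. Fibroblast markers summed to 217 to 230 CPM untreated and 300.3 to 324 CPM with TGFb, with 4 of 6 tested higher. The part of either was not tested.

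The response to TGFb was then compared between the lines with an interaction term. It passed for 8 members, 4 in each direction, or 22.2% of the set beside 8.83% of all genes tested (5.04% higher, 3.79% lower). Members that fell in WT and did not fall as far in AE were Pgk1, Ldha, Car9 and Ankrd37. Members with a higher response in WT than in AE were Ldhb, Pfkfb3, Ndrg1 and P4ha2. By class, 2 of 17 enzymes were higher and 1 lower in AE minus WT (median 0.48), and 2 of 12 other HIF targets were higher and 2 lower (median 0.25), against a median of -0.03 over all genes.

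Pgk1 went from 344 and 336 CPM to 288 and 281 CPM in AE, so that its response was -2.04 ± 0.19 in WT and -0.25 ± 0.19 in AE on the log2 scale (difference 1.78 ± 0.27, adjusted p = 0.0012). For Ldha the responses were -2.29 ± 0.33 and -0.54 ± 0.31 (difference 1.75 ± 0.45, adjusted p = 0.029). Car9 was at 71.0 and 68.2 CPM untreated and 92.5 and 91.2 CPM with TGFb in AE, a response of 0.40 ± 0.29 against -2.19 ± 0.33 in WT (difference 2.59 ± 0.43, adjusted p = 0.0028). Car9 was thus higher in both treated AE libraries and lower in both treated WT libraries, although its change in AE alone did not pass (adjusted p = 0.51). Ankrd37 was at 2.68 and 2.98 CPM and 4.37 and 2.94 CPM in AE, with overlap, a response of 0.37 ± 0.35 against -2.33 ± 0.39 in WT (difference 2.69 ± 0.52, adjusted p = 0.0067).

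P4ha2 was at 80.7 and 77.6 CPM untreated and 127 and 132 CPM with TGFb in AE, a response of 0.71 ± 0.31 against 4.17 ± 0.38 in WT (difference -3.46 ± 0.48, adjusted p = 0.00082). Even with TGFb, the WT level of P4ha2 stayed below that of untreated AE. Ldhb was at 70.7 and 67.6 CPM and 97.2 and 98.5 CPM in AE, a response of 0.50 ± 0.20 against 1.54 ± 0.21 (difference -1.04 ± 0.29, adjusted p = 0.044). Pfkfb3 was at 51.4 and 59.6 CPM and 50.9 and 46.9 CPM in AE, a response of -0.18 ± 0.24 against 1.05 ± 0.25 (difference -1.23 ± 0.34, adjusted p = 0.046). These genes began higher in AE than in WT. Ndrg1 was at 75.3 and 91.4 CPM untreated and 62.8 and 71.6 CPM with TGFb in WT, a response of -0.31 ± 0.23 against -1.47 ± 0.23 in AE (difference -1.16 ± 0.32, adjusted p = 0.044).

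Pgk1, Car9, Ankrd37 and P4ha2 kept the call on this difference in every alternative that tested them. Ldha, Ldhb, Pfkfb3 and Ndrg1 lost it when any 1 of the 8 libraries was left out, which left 4 members each time, beside 4.84% to 5.47% of all genes. Of the fibroblast markers 2 of 6 were lower and of the epithelial markers 2 of 9 higher by this difference, and their part was not tested. Car12 had a larger fitted difference (2.72 ± 0.94, adjusted p = 0.14) that did not pass; WT held 2 to 4 counts of it per 4-day group. Pfkp fell in both lines, and the difference was 0.14 ± 0.40 (adjusted p = 0.93). The WT and AE comparisons with TGFb share no library, but the line difference without treatment uses the same untreated libraries as both, and as the Wnt3a comparisons.

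With Wnt3a, WT changed in 2 members, both up, or 5.56% of the set beside 4.28% of all genes tested (2.26% higher, 2.02% lower). They were 1 of the 17 enzymes and 1 of the 12 other HIF targets. Ldhb rose from 11.2 and 16.4 CPM to 32.0 and 41.6 CPM (log2 fold change 1.41 ± 0.21, adjusted p = 0.0031). P4ha2 rose from 0.606 and 1.03 CPM to 3.53 and 3.66 CPM (log2 fold change 2.11 ± 0.38, adjusted p = 0.009). Both also rose with TGFb in WT, and in both treatments no treated library overlapped the untreated ones. The other 34 members had fitted log2 fold changes of -0.87 (Ndrg1) to 1.23 (Pfkfb4), leaving out Slc16a3, which had 0 counts in the untreated and 3 in the treated libraries together. Ldha was at 694 and 1259 CPM untreated and 687 and 1240 CPM with Wnt3a, so that the replicates differed more than the groups.

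The medians with Wnt3a in WT were 0.15 for enzymes and -0.10 for the 11 other HIF targets with counts (all genes 0.01). The count depended on single libraries: 12 members passed without untreated replicate 2 (10 higher, 2 lower; 20.1% of all genes), 6 without Wnt3a replicate 1 (23.9% of all genes) and 3 without either other library (2.14% and 2.63%). With the 3-day libraries fitted alone, no member passed, in a fit that called 0.157% of all genes; the log2 fold changes there were 1.42 ± 0.32 for Ldhb (adjusted p = 0.14) and 2.12 ± 0.48 for P4ha2 (adjusted p = 0.15). P4ha2 also lost its call without untreated replicate 1. The proliferation genes summed to 3116 to 5147 CPM untreated and 1311 to 2346 CPM with Wnt3a, with none of the 5 passing, and their part was not tested.

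In AE, Wnt3a lowered 3 members and raised none, or 8.33% of the set beside 9.33% of all genes tested (4.59% higher, 4.74% lower). Ndrg1 fell from 366 and 262 CPM to 96.1 and 103 CPM (log2 fold change -1.66 ± 0.23, adjusted p = 0.00084). Pfkp fell from 74.4 and 55.2 CPM to 27.3 and 22.2 CPM (log2 fold change -1.39 ± 0.29, adjusted p = 0.0085). Pfkfb3 fell from 46.4 and 45.7 CPM to 24.5 and 24.8 CPM (log2 fold change -0.90 ± 0.24, adjusted p = 0.036). No treated library overlapped the untreated ones for these genes. The enzymes had a median log2 fold change of -0.04, the other HIF targets -0.10 and all genes -0.03.

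Ndrg1 kept its call in AE with Wnt3a in every alternative run. Pfkp lost it without untreated replicate 1 or Wnt3a replicate 2, and Pfkfb3 without any 1 library. With the 3-day libraries fitted alone, 1 member passed, beside 2.8% of all genes. Both 3-day AE replicates 2 were high in Lars2 (0.128% and 0.157% of counts, at most 0.0359% elsewhere); without them 1 member passed, beside 3.63% of all genes. Fibroblast markers summed to 243 to 359 CPM untreated and 166 to 176 CPM with Wnt3a (1 of 6 higher, 1 lower), and their part was not tested. The difference between the lines in the Wnt3a response passed for no member, beside 2.34% of all genes tested, 1.18% higher and 1.16% lower. At an unadjusted p under 0.05 in edgeR stood 8 of 36 members and 2168 of 13172 genes. DESeq2 called 3 members, beside 5.34% of all genes, and limma called 1, beside 4.11%. With the replicate number as a block within each line 4 passed, beside 9.02% of all genes. Pfkfb3 had the smallest adjusted p, with responses of 0.55 ± 0.25 in WT and -0.90 ± 0.24 in AE (difference -1.45 ± 0.35, adjusted p = 0.051).

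**Figure D4:**
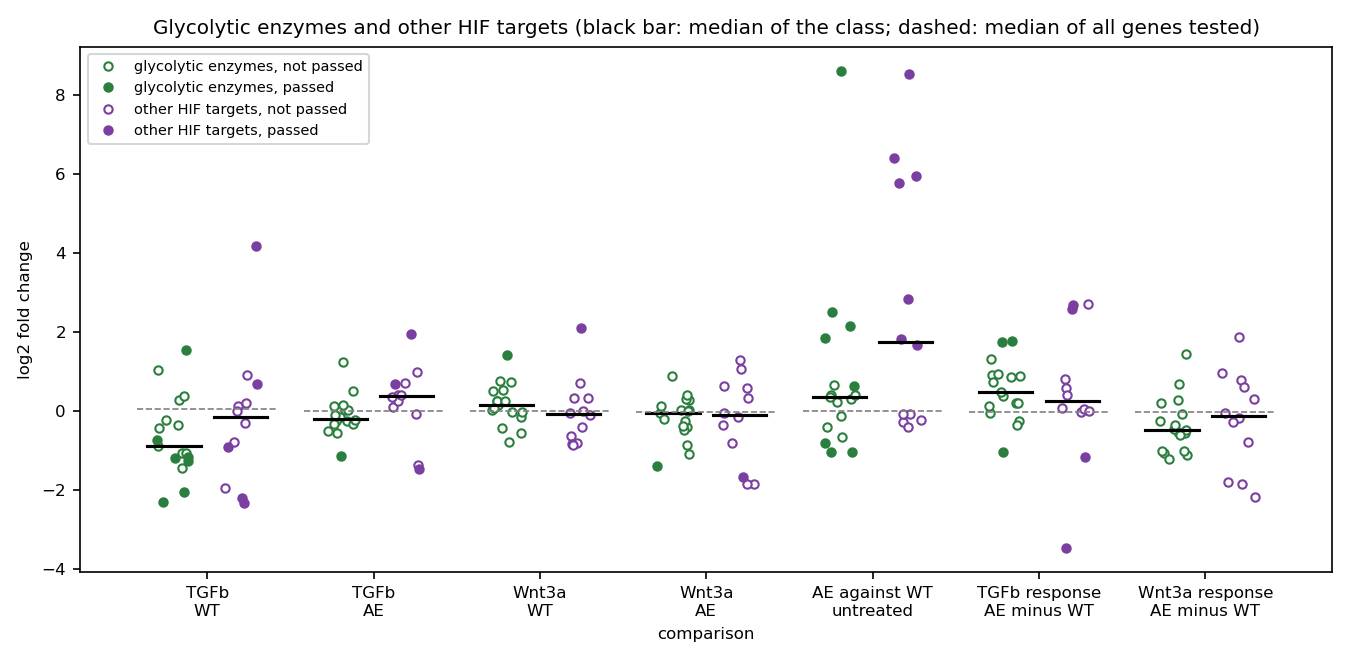
Log2 fold changes of the 17 glycolytic enzymes (green) and 12 other HIF targets (purple) in the 7 comparisons; filled points passed, black bars are class medians and dashed lines the median of all genes tested. The enzymes' median with TGFb in WT is -0.89, and that of the other HIF targets in AE against WT is 1.75. The latter includes Egln3, Car12 and Adm, which passed the level filter only through AE.

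Shares within isozyme families, computed from CPM per kb of exon, put these changes on 1 scale that does not depend on the scaling of libraries. No test was run on them, and values are mean ± SD of 2 libraries. Absolute shares depend on the length used, here that of all annotated exons of a gene together. For Aldoa this was 2565 bases against 1549 in its longest transcript, and for Aldoc 2976 against 2786. The Ldhb share of lactate dehydrogenase was higher with each treatment. In WT the Ldhb share was 1.78% ± 0.06 untreated and 20.6% ± 0.3 with TGFb, and 2.08% ± 0.31 untreated and 5.50% ± 1.2 with Wnt3a. In AE it was 7.54% ± 0.09 and 14.4% ± 0.1 around TGFb, and 9.95% ± 2.1 and 15.8% ± 1.7 around Wnt3a. Treated and untreated libraries did not overlap in any of the 4 pairs of groups, while Ldhb itself passed the test in WT and not in AE.

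Aldolase C made up 0.140% ± 0.024 and 0.249% ± 0.024 of the aldolase pool in untreated WT at 4 and 3 days and 36.3% ± 2.1 and 36.8% ± 13 in untreated AE. Pfkp made up 25.9% ± 4.5 of phosphofructokinase in untreated 4-day WT and 16.5% ± 3.0 with TGFb; in AE the shares were 13.0% ± 1.4 and 8.30% ± 0.24. Around Wnt3a they were 36.9% ± 9.1 and 19.96% ± 4.58 in WT and 16.1% ± 3.0 and 9.85% ± 1.1 in AE. The Pfkp share was lower with treatment in all 4 pairs. P4ha2 made up 2.14% ± 0.32 of the collagen hydroxylase pair in untreated 4-day WT, 19.8% ± 3.1 with TGFb, and 33.5% ± 0.6 and 33.7% ± 1.2 in AE. Egln3 made up 0.762% ± 0.217 of the Egln1 and Egln3 pair in untreated 4-day WT and 43.3% ± 1.7 in AE, where it was 21.6% ± 3.1 with TGFb.

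**Figure D5:**
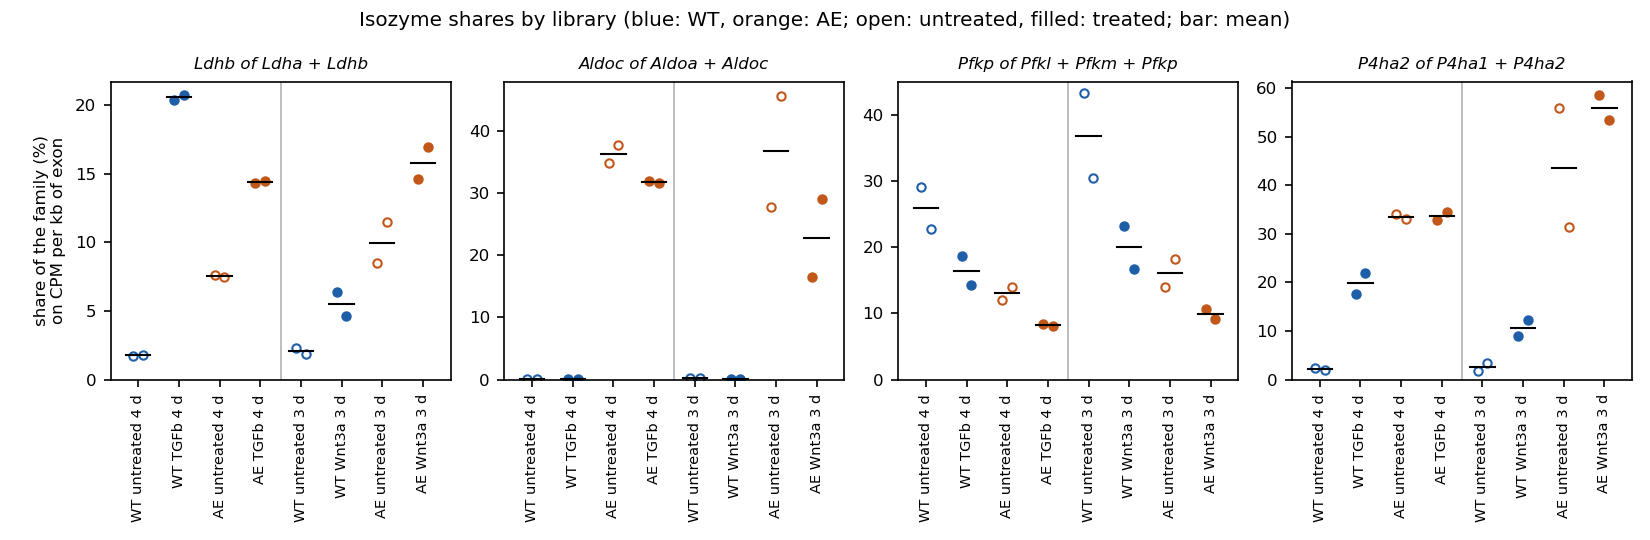
Share of 1 isozyme in its family in each library, in percent on CPM per kb of exon, starting at 0 (points are libraries, bars the mean of 2; 4-day experiment left of the grey line). The Ldhb share is higher in treated than untreated libraries in every pair of groups, and the Aldoc share is below 0.3% in WT and 16.6% or more in AE.

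Genes of the same pathways outside the 36 were counted in lists drawn up with earlier results of these data known. Of 16 other glycolysis genes tested, 3 fell with TGFb in WT (18.8%, all genes 27.6%) and 2 rose in AE (12.5%, all genes 10.4%); the 2 were Bpgm, which makes 2,3-bisphosphoglycerate (28.4 ± 2.5 to 50.2 ± 4.0 CPM, adjusted p = 0.02), and Adpgk, an ADP-dependent glucokinase (29.3 ± 0.3 to 44.7 ± 0.6 CPM, adjusted p = 0.042). Slc16a7 (MCT2), a further lactate carrier, was at 2.76 ± 1.3 CPM in untreated WT and 30.9 ± 5.2 CPM in AE (n = 4, log2 fold change 3.6 ± 0.2, adjusted p = 4.1e-08). It fell with Wnt3a in AE, from 31.4 ± 8.2 to 11.2 ± 1.4 CPM (adjusted p = 0.0034).

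Of 15 HIF subunits and regulators tested, 1 rose with TGFb in WT and none passed in AE, 1 fell with Wnt3a in each line, and 4 were higher and 4 lower in AE than in WT. These shares were 6.67% with TGFb in WT, beside 27.6% of all genes, and 53.3% between the lines, beside 53.8%. With TGFb in AE 10.4% of all genes passed. The share with Wnt3a was 6.67% in each line, beside 4.28% of all genes in WT and 9.33% in AE. Epas1 encodes HIF-2 alpha. It was at 22.6 ± 5.7 CPM in untreated WT and 113 ± 35 CPM in AE (n = 4, log2 fold change 2.32 ± 0.21, adjusted p = 1.6e-06), and it was the gene that fell with Wnt3a, from 26.8 ± 4.2 to 9.37 ± 2.8 CPM in WT (adjusted p = 0.012) and from 88.7 ± 34 to 32.1 ± 2.9 CPM in AE (adjusted p = 0.0058). Cited2, a competitor of HIF for its co-activators, was at 307 ± 156 CPM in WT against 28.2 ± 15 CPM in AE (adjusted p = 2.7e-06). Arnt2, a beta subunit, was at 0.315 ± 0.066 CPM and 6.15 ± 1.0 CPM (adjusted p = 5.5e-08).

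Of 31 further HIF targets tested, 10 rose and 4 fell with TGFb in WT (45.2%; median log2 fold change 0.18), beside 27.6% of all genes, and 5 rose and none fell in AE (16.1%, all genes 10.4%). Ak4, a mitochondrial adenylate kinase, fell in WT from 26.05 ± 1.38 to 4.36 ± 0.25 CPM (adjusted p = 0.00081). In AE the collagen cross-linking enzyme Lox rose from 32.3 ± 4.6 to 195 ± 2 CPM (adjusted p = 0.0012). The response difference passed for Ak4 (log2 2.50 ± 0.58, adjusted p = 0.018), which was at 67.0 ± 5.3 CPM untreated and 63.5 ± 0.2 CPM with TGFb in AE. In AE against WT without treatment, 15 were higher and 7 lower (71%, beside 53.8% of all genes). With Wnt3a 2 rose and 3 fell in WT (16.1%, all genes 4.28%) and 4 rose and 5 fell in AE (29%, all genes 9.33%).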

How the data were processed

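RNA of 16 libraries was sequenced as 75-base single reads from a stranded mRNA kit, per the labels' protocols. Reads were aligned with STAR to mm10, per the submitters' processing notes; which counter, strand setting and annotation were used is not given in these sources. Deposited by the authors were whole-number read counts per gene, for 19665 Entrez identifiers, of which 19613 were paired with a symbol. Totals were 20530538 to 26191846 counts per library, and the 2 libraries per group limit the precision.

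Genes with at least 1 CPM in at least 2 libraries (13172) were fitted with edgeR 4.0.16 (R 4.3.3): TMM scaling, 1 mean per group over all 16 libraries, a quasi-likelihood test and Benjamini-Hochberg adjustment over all genes tested. The same code was tested on simulated data, with 1 mean per gene and 100 genes changed 2-fold and 100 changed 4-fold in each comparison. Of 100 genes changed 2-fold it recovered 6 to 13 in the treatment comparisons, 44 between the lines and 0 in either difference in response. Of 100 changed 4-fold it recovered 65 to 78, 93, and 22 to 24. Fewer genes were changed there than passed in the data, where 53.8% did in AE against WT, so the adjusted threshold was stricter. These rates are therefore no measure of recovery among the members. A member that did not pass may still have changed by 2-fold or more. Line differences averaged the 3-day and 4-day differences, and differences in response were interaction terms. A fold against a group with no counts used 3 counts over the group. Intervals and floors cover counting error only. Every member that passed a comparison was described with all its libraries, and others by range and count. The members and gene lists were chosen with earlier results of these data known. Alternatives were other scalings, low-count filters, DESeq2 1.42.0, limma 3.58.1 on log2(CPM + 0.1), replicate blocks, GC and length offsets, each experiment alone and single libraries left out. Promoter windows came from RefSeq (GRCm38.p6). Transcript sequences, their GC content and exon lengths came from GENCODE. Summaries used Python 3.11.15.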

Additional observations from a re-analysis of the deposited data

Results flagged for a closer look

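Among 72 sets of 4 untreated libraries, each pooled over the 3-day and 4-day experiments of a line, 3 held a library far from the others, with a gap to its nearest neighbour, divided by the whole range, above Dixon's 95% critical value. Chance alone marks about 1 in 20 such sets. In untreated AE this ratio was 0.837 for Pfkp, whose lowest library was 3-day replicate 2. It was 0.959 for Slc16a3 and 0.874 for Ndrg1, whose highest library was 3-day replicate 1 in each case.

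The response to TGFb differed between the lines for 8 members by the interaction test (AE minus WT, log2 scale). The difference was 1.78 for Pgk1, 1.75 for Ldha, 2.59 for Car9 and 2.69 for Ankrd37. It was -1.04 for Ldhb, -1.23 for Pfkfb3, -1.16 for Ndrg1 and -3.46 for P4ha2. The calls of Ldha, Ldhb, Pfkfb3 and Ndrg1 were lost whichever library was left out, while their directions held in every alternative. For Ldha the difference ranged from 1.655 to 1.828. With all libraries kept, total-count scaling removed the calls of Ldha, Ldhb and Ndrg1, and median-ratio scaling that of Pfkfb3. Without the low-count filter Ldhb, Pfkfb3 and Ndrg1 lost theirs.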

How the results depend on the processing

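Counts of members called are given against 15 (WT TGFb), 5 (AE TGFb), 2 (WT Wnt3a), 3 (AE Wnt3a), 19 (AE against WT), 8 (TGFb difference) and 0 (Wnt3a difference). With only the experiment compared they were 27, 13, 0 and 1, and 13 for the TGFb difference. Beside them stood 55.9%, 35.0%, 0.157%, 2.8% and 30.2% of all genes. AE against WT gave 12 in the 3-day libraries, beside 20.9% of all genes. GC and length offsets gave 9 for AE TGFb, 6 for WT Wnt3a, 12 for AE Wnt3a, 29 for AE against WT and 4 for the Wnt3a difference. The shares of all genes in these fits were 24.5%, 14.9%, 20.1%, 71.2% and 8.27%. These offsets moved the median of all genes by -0.33 in AE against WT, where 3245 genes were higher and 6132 lower, beside 3609 and 3473. They turned Bnip3 to 0.45, Bnip3l to 0.16 and Hk1 to -0.19. DESeq2 gave 4 for WT Wnt3a, 7 for AE Wnt3a and 3 for the Wnt3a difference, beside 9.8%, 12.5% and 5.34% of all genes. For the last, limma gave 1, beside 4.11%. Total-count scaling and no low-count filter each gave 5 for the TGFb difference, beside 8.75% and 5.86% of all genes. Total-count scaling and a minimum of 5 CPM each gave 1 for the Wnt3a difference, beside 2.37% and 2.23% of all genes. Total-count scaling moved the median of all genes by -0.12 (WT TGFb), -0.10 (AE TGFb), 0.11 (WT Wnt3a) and -0.12 (Wnt3a difference). Without both 3-day AE libraries high in Lars2, an alternative chosen after seeing the data, AE Wnt3a gave 1. The cause was not tested for any of these.

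Replicate numbers were no shared batch in the labels: deviations of same-numbered libraries correlated at 0.503 to 0.722 within WT, -0.1 to 0.396 within AE and -0.567 to 0.035 between the lines. A replicate block gave 15, 5, 2, 4, 19, 8 and 0 members, beside 26.9%, 10.1%, 4.19%, 9.28%, 53.3%, 8.68% and 2.08% of all genes. A replicate block within each line gave 6 for WT Wnt3a, 9 for AE Wnt3a and 4 for the Wnt3a difference. The shares of all genes were 17.1%, 14.4% and 9.02%. This block turned Slc2a1 to 0.60 in AE against WT. With it, 36.9% of all genes passed for WT TGFb, beside 27.6% without a block. The tests reported above hold no block, so their spread in WT includes the deviation shared by same-numbered libraries. GC and length offsets with a replicate block gave 9 for AE TGFb, 6 for WT Wnt3a, 12 for AE Wnt3a and 5 for the Wnt3a difference. There 24.4%, 14.4%, 19.9% and 7.96% of all genes passed, with Bnip3 at 0.45, Bnip3l at 0.16 and Hk1 at -0.20. A replicate block crossed between the lines, chosen after seeing the data, gave 17, 6, 6, 7, 22, 9 and 3. It called 34.6%, 14.6%, 11.8%, 12.5%, 62.2%, 12.3% and 5.38% of all genes.

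Leaving out 1 library at a time gave 8 to 10 members for WT TGFb, 1 to 2 for AE TGFb, 3 to 12 for WT Wnt3a, 1 to 3 for AE Wnt3a, 17 to 26 for AE against WT, 4 to 4 for the TGFb difference and 0 to 5 for the Wnt3a difference. The highest of these for WT Wnt3a, AE against WT and the Wnt3a difference all came without untreated 3-day WT replicate 2. Without that library the share of all genes called was also higher in each of these comparisons than with every library kept. For WT TGFb, AE TGFb and the TGFb difference, that share was lower whichever library was left out, as were the member counts. The shifts in member counts are therefore not particular to the members. A lone library left in a group is assumed to vary like the other groups. Depth limits Slc16a3, Adm and Car12 in WT and Gapdh in both lines.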

Other observations

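Genes of neighbouring carbon pathways were counted beside the share of all genes called, 27.6% with TGFb in WT, 10.4% with TGFb in AE and 53.8% between the untreated lines. Of 16 citric acid cycle genes, 2 fell with TGFb in WT (12.5%) and none passed in AE. Fh1, fumarate hydratase, fell from 115 ± 8 to 69.5 ± 5.5 CPM (SD, n = 2; edgeR, adjusted p = 0.024), and Idh3a, a subunit of isocitrate dehydrogenase, from 262 ± 19 to 167 ± 14 CPM (adjusted p = 0.029). Of 7 pentose phosphate genes 1 fell in WT: G6pdx, which commits glucose to that pathway, from 256.3 ± 12.3 to 101 ± 6 CPM (adjusted p = 0.0017), and its response differed between the lines (log2 1.40 ± 0.35, adjusted p = 0.026). Of 11 pyruvate dehydrogenase genes and regulators 1 rose in WT: Pdk2, a kinase of that enzyme, from 4.13 ± 0.43 to 10.2 ± 1.9 CPM (adjusted p = 0.043).

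Ppargc1a, a co-activator of mitochondrial genes, fell with TGFb in WT from 8.10 ± 0.92 to 0.663 ± 0.175 CPM (adjusted p = 6e-05) and with Wnt3a in WT from 17.2 ± 2.8 to 2.17 ± 1.10 CPM (adjusted p = 0.0017). Without treatment it was at 12.6 ± 5.5 CPM in WT against 3.34 ± 0.99 CPM in AE (n = 4, adjusted p = 9.2e-05). In the same comparison 5 of 16 citric acid cycle genes (1 higher, 4 lower), 5 of 11 pyruvate dehydrogenase genes and regulators (2 higher, 3 lower) and 2 of 7 pentose phosphate genes (both lower) passed. Pdk2 was at 3.77 ± 1.51 CPM in WT against 22.4 ± 4.2 CPM in AE (adjusted p = 2.8e-05), and Sdha, a subunit of succinate dehydrogenase, at 247 ± 12 and 142 ± 14 CPM (adjusted p = 8.9e-05). These lists were drawn up with earlier results of these data known.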
